A study of Saccharomyces cerevisiae with 9 samples.

Results

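The comparison described here set 3 arrays of the S5A strain of budding yeast (labelled CTD5A) against 3 arrays of the S2A strain (CTD2A), 6 of the 9 arrays of the series, and asked feature by feature whether the response to salt depended on which serine of the RNA polymerase II tail had been replaced. The other 3 arrays came from the wild-type strain (CTD14), and their values are given beside those of the mutants as a description. They also entered the test, since all 9 arrays had to hold a value and shared one estimate of the spread. All strains lacked the endogenous RPB1 gene, which is listed here as RPO21 and encodes the largest subunit of RNA polymerase II, and carried RPB1 on a plasmid. The wild-type plasmid encoded a C-terminal domain (CTD) of wild-type repeats. Each mutant plasmid encoded a chimera in which a block of repeats with alanine in place of serine 2 (S2A) or serine 5 (S5A) was followed by a block of wild-type repeats, so that no strain lost every copy of the serine. The S2A and S5A blocks were of different lengths, and the strains therefore differed in the number of repeats as well as in the residue replaced. Cells were grown in rich medium (YPD) at 30 °C, and cDNA taken 30 min after the addition of NaCl to 0.7 M was hybridised together with cDNA from that strain before stress. A positive log2 ratio is induction by NaCl, and a negative ratio is repression. A difference between mutants below is the mean log2 response in S5A minus that in S2A. Because each ratio compares a strain with itself, levels before stress in S2A and S5A were not compared here, nor could the arrays show which CTD allele a culture carried. The paper compared unstressed strains through single-channel data and reports few expression differences from wild-type before stress.

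The CTD is a long tail of repeated heptapeptides whose phosphorylation changes as the polymerase moves along a gene. Serine 5 is phosphorylated early, around initiation and promoter escape, by the kinase Kin28 of TFIIH, and this mark recruits the capping enzymes and the early termination factor Nrd1. Serine 2 phosphorylation by Ctk1 and Bur1 rises during elongation and recruits 3′ processing factors. A sudden rise in salt activates the Hog1 kinase and the environmental stress response (ESR), in which stress defence genes (the induced ESR, iESR) rise while genes for ribosome assembly and ribosomal proteins fall.

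Salt changed most features in either mutant, and most of the differences between the mutants were differences in the size of a response that both showed. Of 5645 features with a value on all 9 arrays, limma called 187 different between S5A and S2A at an adjusted p at or below 0.025, or 3.31% of those tested. In 85 of them (1.51% of the features tested) the S5A value was higher and in 102 (1.81%) it was lower, while the median difference over all features was 0.00549. Sizes of the called differences ran from 0.57 to 2.53 on the log2 scale, with a median of 0.99. In each of the 187 the 3 arrays of one mutant lay apart from the 3 of the other, which was also true of 18.7% of all features with S5A higher and 18.2% with S5A lower. The number of called features rested on single arrays. With limma, no feature was called without S2A replicate 1, S2A replicate 3 or S5A replicate 1, although 1352, 1210 and 1090 features then had an unadjusted p below 0.05 and the lowest adjusted p was 0.0301, 0.0377 and 0.0328. Without S5A replicate 2 or S5A replicate 3 the counts were 12 and 6, without S2A replicate 2 the count was 123, and without wild-type replicate 3 it was 61. With only the 6 mutant arrays the count was also 61, so the wild-type arrays bore on the calls through the shared spread. Nothing in the labels or the methods says that the 3 arrays of a strain came from separate cultures, so the p-values measure the spread between these arrays, part of which may be technical.

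**Figure D1:**
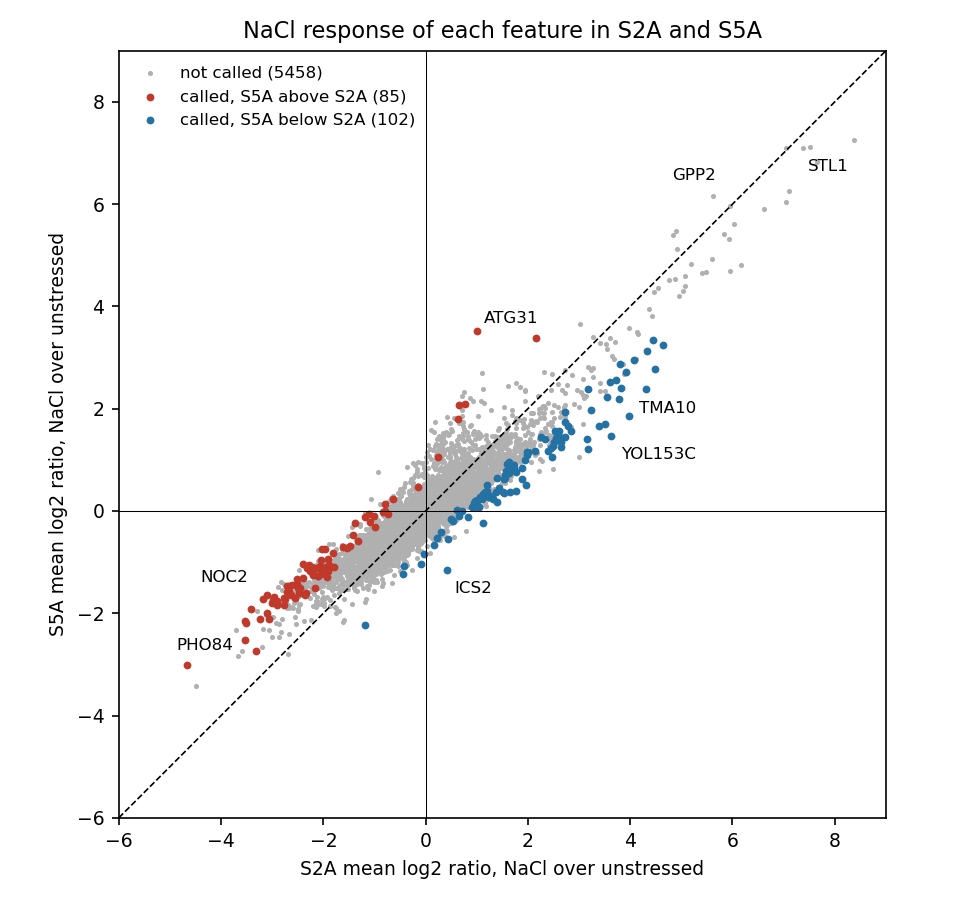
Mean log2 ratio (NaCl over unstressed) of each of 5645 features in S2A (x axis) and S5A (y axis), 3 arrays each, with the 187 features called by limma in colour and the dashed line marking equal responses. Most called features lie between the line and the horizontal axis, with 73 induced and 68 repressed in both strains and less so in S5A, and ATG31 stands far above the line.

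The 187 features fell into a few classes by their own NaCl response, called in each mutant at a limma adjusted p below 0.05. The largest class held 73 features induced in both mutants and less in S5A, for which the S5A response was a median 0.515 of the S2A response (range 0.223 to 0.760). Another 68 were repressed in both and less in S5A, at a median 0.567 of the S2A response (range 0.315 to 0.827). A further 19 were induced in S2A and had no called response in S5A, and 10 were repressed in S2A and had no called response in S5A. The remaining 17 features responded more in S5A, or in the opposite direction, and are taken up below. The wild-type mean was nearer to the S2A mean than to the S5A mean for 178 of the 187 features, against 3686 of all 5645. These counts describe the called features, which were selected on the same S2A and S5A values.

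The iESR genes with a called difference rose less in S5A. Of 75 listed genes 73 had complete values, and 22 of them were called (30.1%, against 3.31% of all features), all lower in S5A. The median difference of the list was -0.70, and 68 of the 73 differences were below 0. The median iESR response was 2.98, 2.38 and 2.61 on the 3 S2A arrays, 1.76, 1.90 and 1.89 on the S5A arrays, and 2.64, 2.52 and 2.69 on the wild-type arrays, so that the mutants did not overlap. After the arrays were scaled to one spread, 4 iESR genes were called, 1 higher and 3 lower in S5A, and the list median was -0.22. Quantile normalization gave the same split, with a median of -0.27. Without wild-type replicate 3 the count was 7, without S5A replicate 2 it was 3, and without S5A replicate 3 it was 0.

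The largest reductions of induction in S5A were in genes of varied function. TMA10, which encodes a ribosome-associated protein, gave 4.66, 3.64 and 3.62 on the S2A arrays and 1.59, 1.75 and 2.25 on the S5A arrays, with 3.19, 4.11 and 3.86 in wild-type. Its difference was -2.11 (standard error 0.322; limma adjusted p = 0.0125), and no S5A array reached the lowest S2A array. YOL153C, whose product resembles a vacuolar carboxypeptidase, differed by -2.16 (standard error 0.383; adjusted p = 0.0148). Other differences of this size were those of YHR007C-A, a small protein of unknown function (-1.98), RGI1, which is needed for energy metabolism under respiratory conditions (-1.92), and CLD1, the mitochondrial cardiolipin deacylase (-1.74). SDP1, the stress-inducible phosphatase of the cell wall MAP kinase Slt2, differed by -1.72, and DCS2, a regulator of the scavenger decapping enzyme, by -1.71. TFS1, an inhibitor of vacuolar carboxypeptidase Y, differed by -1.59 and HSP42, a small heat shock protein that sorts protein aggregates, by -1.42. On the S5A arrays DCS2 still reached 2.56, 3.11 and 2.65 (S2A: 4.84, 4.18 and 4.44), so a strong induction remained even in some of the genes with the largest reductions.

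**Figure D2:**
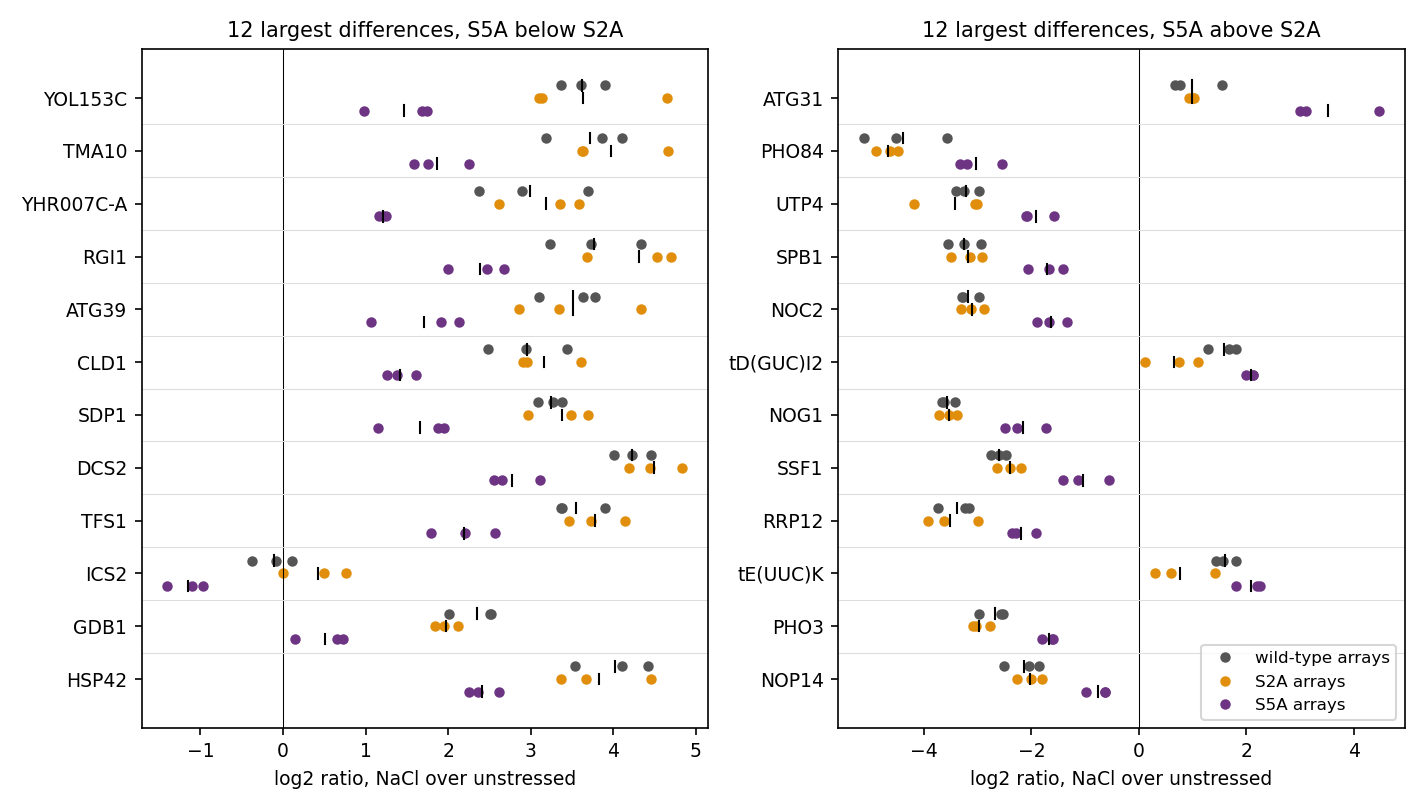
Log2 ratio (x axis, NaCl over unstressed) on each of the 9 arrays for the 12 called features with the largest negative difference (left) and the 12 with the largest positive difference (right); points are single arrays of wild-type, S2A and S5A, and vertical ticks are strain means of 3 arrays. In every gene shown the S5A points lie apart from the S2A points, because only called features with this separation could be chosen. Wild-type lies near S2A in most of them, and the exceptions include the tRNA features tD(GUC)I2 and tE(UUC)K.

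Trehalose metabolism had the highest share of called genes among the 50 lists. Trehalose protects proteins and membranes in stressed yeast and glycogen is the main storage glucan. Of the 7 trehalose genes 6 were called (85.7%, against 3.31% of all features), all lower in S5A, with a list median difference of -0.80. The list median was 2.86, 2.43 and 2.73 on the S2A arrays and 1.10, 1.57 and 1.60 on the S5A arrays. Genes of synthesis and of breakdown were both among them. TPS2, the trehalose-6-phosphate phosphatase, gave 4.78, 4.26 and 4.28 in S2A, 3.28, 3.32 and 3.45 in S5A and 4.49, 4.68 and 4.31 in wild-type. Its difference was -1.09 (standard error 0.173; adjusted p = 0.0127). The synthase TPS1 (-0.80) and the regulatory subunits TSL1 (-1.16) and TPS3 (-0.70) also rose less. On the breakdown side, ATH1, the acid trehalase, gave 2.86, 2.43 and 2.73 in S2A and 1.10, 1.57 and 1.60 in S5A, a difference of -1.25 (standard error 0.183; adjusted p = 0.0125), and it is the gene that sets the list median on these arrays. The neutral trehalase NTH1 differed by -0.68, and its paralog NTH2 by -0.33, which was not called. Trehalose genes had no call after scaling to one spread or quantile normalization (list medians -0.44 and -0.46), nor without S5A replicate 2 or S5A replicate 3, and 3 calls without wild-type replicate 3. The iESR list shares 15 genes with the trehalose and glycogen lists, so these lists are not independent. TPS1, TPS2, TSL1, TPS3 and NTH1 were also counted among the called iESR genes.

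Glycogen genes were called in 5 of 17 cases (29.4%, against 3.31% of all features), all lower in S5A, and all 17 differences were below 0 (median -0.44). GDB1, the debranching enzyme, was the most affected, with 1.95, 1.84 and 2.12 on the S2A arrays, 0.15, 0.73 and 0.66 on the S5A arrays, and 2.0, 2.51 and 2.52 on the wild-type arrays. The difference was -1.46 (standard error 0.199; adjusted p = 0.0117), and the highest S5A array lay more than 1 log2 unit below the lowest S2A array. GIP2, a regulatory subunit that targets the phosphatase Glc7 (-1.25), PGM2, the major phosphoglucomutase (-1.19), GLC3, the branching enzyme (-1.04), and GSY2, the main glycogen synthase (-0.89), were the others. GPH1, the glycogen phosphorylase, differed by -0.36 and UGP1, which makes UDP-glucose for both sugars, by -0.44, and neither was called. A single glycogen gene was called after scaling, after quantile normalization, without wild-type replicate 3 and without S5A replicate 2, and none without S5A replicate 3. GDB1, PGM2, GLC3 and GSY2 were also counted among the called iESR genes.

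Strongly salt-induced genes had a larger share of calls than features in general. None of the 10 strongest was called, although most of them shifted in the same direction. Among the 100 most induced features in wild-type 27 were called (27.0%) and among the 50 most induced 11 (22.0%), all lower in S5A, against 3.31% of all features. Of the 10 features with the highest mean response in wild-type (STL1, FMP48, RTC3, HSP12, MPC3, PHM7, TKL2, HXT5, CTT1 and GPP2), 0 were called by limma. Their differences ran from -1.12 to 0.54 with 8 below 0 and 2 above. The median was -0.57, against -0.68 for the 50 most induced, and the standard errors ran from 0.256 to 0.504. STL1, the glycerol importer and a classic target of the Hog1-dependent factor Hot1, gave 9.24, 7.60 and 8.29 in S2A and 6.94, 7.24 and 7.58 in S5A, so that the S2A arrays spread over a wider range than the difference of -1.12 (95% confidence interval -1.99 to -0.25; adjusted p = 0.101). GPP2, which encodes the last enzyme of glycerol synthesis, had the opposite sign, with 6.26, 5.37 and 5.25 in S2A and 6.35, 6.11 and 6.04 in S5A (0.54; 95% confidence interval -0.07 to 1.15; adjusted p = 0.233). GPD1, the first enzyme of that pathway, differed by -0.34 (adjusted p = 0.266), and ALD3, an aldehyde dehydrogenase, by 0.01 (adjusted p = 0.978). STL1, GPP2, GPD1 and ALD3 were named after their values were seen. After scaling to one spread, STL1 and GPD1 turned to 0.55 and 0.66, GPP2 reached 1.86 and ALD3 1.31, and GPP2 was then called higher in S5A. Of 14 glycerol genes the only call (7.14%) was in GUT2, the mitochondrial glycerol-3-phosphate dehydrogenase, which uses up glycerol 3-phosphate. GUT2 gave 1.62, 1.28 and 1.67 in S2A, 0.17, 0.46 and 0.42 in S5A and 1.33, 1.68 and 1.54 in wild-type, a difference of -1.17 (standard error 0.160; adjusted p = 0.0117).

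Within the HOG pathway itself 1 of 28 genes was called (3.57%), a share near the 3.31% of all features. SSK22, a MAP kinase kinase kinase of the Sln1 branch, was repressed in S2A (-1.08, -0.91 and -1.57) and near 0 in S5A (0.17, -0.24 and -0.26), with -1.08, -1.33 and -1.45 in wild-type and a difference of 1.08 (standard error 0.200; adjusted p = 0.0170). XBP1, a stress-induced transcriptional repressor, rose less in S5A (-1.22).

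Autophagy genes split in an uneven way. Of 41 genes 5 were called lower in S5A and 1 higher (14.6% in all, against 3.31% of all features), the list median being -0.35. ATG8, the ubiquitin-like protein of the autophagosome membrane, gave 2.66, 2.61 and 2.20 in S2A and 0.99, 1.34 and 1.50 in S5A, with 2.22, 2.06 and 2.31 in wild-type (difference -1.22; standard error 0.178; adjusted p = 0.0125). ATG39, the receptor for autophagy of the nuclear envelope, differed by -1.80, ATG1, the kinase that starts the process, by -0.81, and the vacuolar hydrolases APE1 and AMS1, which travel on autophagic carriers, by -1.0 and -0.92. The vacuolar protease and inhibitor list shared APE1 and added YOL153C, TFS1 and the protease PRB1 (-0.80), for 4 called genes of 12 (33.3%), all lower in S5A. None of the 39 proteasome genes was called by limma, although 35 of the 39 differences were below 0 (median -0.29; lowest adjusted p = 0.0424, for RPT5).

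ATG31 differed the other way and had the largest difference of any called feature. It encodes a subunit of the Atg17-Atg29-Atg31 scaffold on which autophagosomes form. The S2A arrays gave 1.04, 1.02 and 0.94 and the wild-type arrays 1.55, 0.77 and 0.67, whereas the S5A arrays gave 4.47, 3.0 and 3.11. ATG31 was thus induced in all strains and by far the most in S5A, with a difference of 2.53 (standard error 0.360; limma adjusted p = 0.0117). The call held in 17 of 21 alternative analyses and was lost without S2A replicate 1, S2A replicate 3, S5A replicate 1 or S5A replicate 3 (highest adjusted p = 0.0377). Its partners in the scaffold, named after their values were seen, had other values, since ATG29 differed by -0.80 (adjusted p = 0.0358) and ATG17 by 0.48 (adjusted p = 0.200). Its neighbour in the genome, FAL1, an RNA helicase of 40S assembly transcribed toward ATG31 from the other strand, was repressed less in S5A (difference 1.15). Whether the array values separate the strands was not stated, and a signal shared by the 2 genes was not tested.

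Genes for ribosome assembly formed the largest group with S5A above S2A, and all the calls in it were in that direction. The small subunit list (73 genes with complete values) and the 60S assembly list (79 genes) each had 20 called genes and shared 1 gene. The called shares were 27.4% and 25.3%, against 3.31% of all features. Their median differences were 0.85 and 0.81, and 149 of the 151 differences in the joined list were above 0. The median response of the joined list was -2.03, -1.97 and -2.09 on the S2A arrays, -0.81, -1.35 and -1.31 on the S5A arrays, and -1.97, -2.45 and -2.31 on the wild-type arrays. The list median was therefore nearer 0 on every S5A array than on any S2A array.

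The calls covered successive steps of assembly. In the small subunit processome they included UTP4 (1.50), UTP6 (1.24), UTP18 (1.17), UTP8 (1.08), UTP13 (1.05) and UTP15 (0.84), which are subunits of the early U3-bound complexes, the methyltransferase NOP1 (0.57), the U3-binding proteins IMP3 (0.67) and IMP4 (1.0), and the export factor RRP12 (1.33). NOP14, a core subunit, gave -2.0, -1.81 and -2.27 in S2A, -0.63, -0.99 and -0.64 in S5A and -1.86, -2.51 and -2.04 in wild-type, a difference of 1.27 (standard error 0.200; adjusted p = 0.0125). In 60S assembly they included the methyltransferase SPB1 (1.47), the GTPases NOG1 (1.38) and NOG2 (1.11), the helicases DBP3 (1.25), MAK5 (1.16), DBP9 (0.95) and DBP7 (0.92), the AAA ATPases RIX7 (1.23) and REA1 (0.69), and SSF1 (1.38). NOC2, part of the complexes that carry 60S precursors out of the nucleolus, had the lowest adjusted p of the list. It gave -3.30, -2.88 and -3.12 in S2A, -1.33, -1.68 and -1.90 in S5A and -2.98, -3.28 and -3.29 in wild-type (difference 1.46; standard error 0.183; adjusted p = 0.0112). The joined count of 40 fell to 3 after scaling to one spread and to 2 after quantile normalization, with list medians of 0.50 and 0.38, and it rose to 73 with the replicate number as a block. It was 33, 52 and 14 without wild-type replicates 1, 2 and 3, 20 without S2A replicate 2, and 4 and 2 without S5A replicates 2 and 3.

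Ribosomal protein genes had smaller differences of the same sign and no call by limma, although 9 were called, all higher in S5A, with the replicate number as a block, 4 with array weights and at most 2 under the other alternatives. Of 137 genes 136 had a difference above 0, with a median of 0.39 and a highest value of 0.75 (RPL4B), yet the lowest limma adjusted p was 0.0296 (RPS24B). The median response was -0.63, -1.08 and -0.81 on S2A replicates 1 to 3 and -0.28, -0.60 and -0.42 on S5A replicates 1 to 3. Wild-type replicates 1 to 3 gave -0.67, -1.24 and -1.09. The lowest S5A array and the highest S2A array differed by little, but at each replicate number the S5A median was nearer 0 than the S2A median. Many of these genes are near-identical paralog pairs that a tiled array may not tell apart. Mitochondrial ribosomal protein genes had 0 calls of 73 by limma and a median of -0.13.

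**Figure D3:**
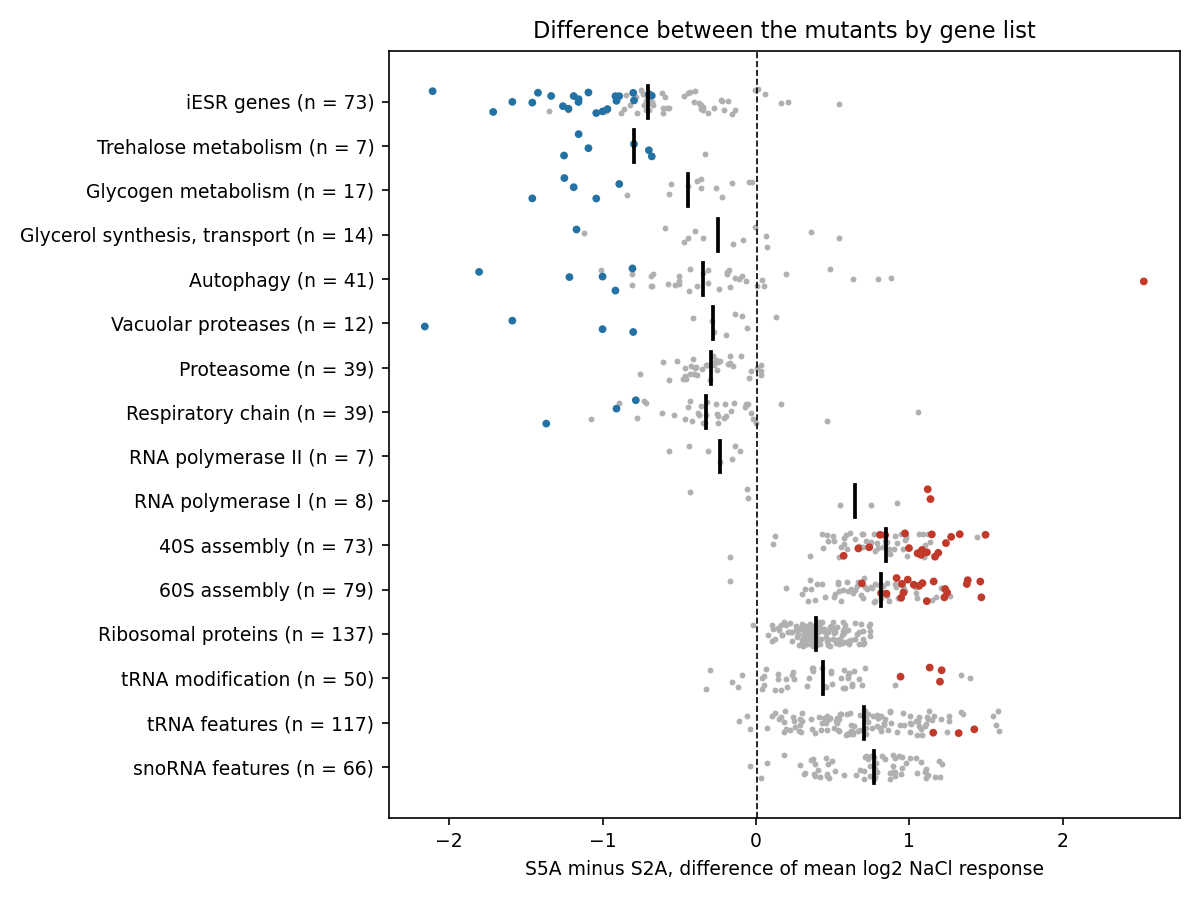
Difference of the mean log2 NaCl response, S5A minus S2A (x axis), for every member with complete values of 16 lists; coloured points were called by limma (red, S5A above S2A; blue, S5A below), vertical bars are list medians and the dashed line is the median of all features. Trehalose, glycogen and iESR genes lie to the left and ribosome assembly genes to the right, and ATG31 is the lone red point in the autophagy row. The iESR list shares 15 genes with the trehalose and glycogen lists.

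Other parts of the machinery that makes RNA and ribosomes had calls in the same direction. RNA polymerase I, which transcribes ribosomal DNA, had 2 called genes of 8, RPA49 (1.12) and RPA43 (1.14), and RNA polymerase III 1 of 10, RPC34 (0.93). RPA43 gave -3.40, -3.03 and -3.30 in S2A and -1.82, -2.20 and -2.30 in S5A. Of 50 genes for tRNA modification and processing, 4 were called (8.0%, against 3.31% of all features), all higher in S5A. They were TRM82 (1.21), TRM11 (1.20), GCD10 (1.13) and DUS3 (0.94). RRP4, a core subunit of the RNA exosome, was repressed in S2A and near 0 in S5A (0.67). It was the 1 called gene of 22 exosome genes (4.55%, near the 3.31% of all features). In nucleotide supply the called genes were all repressed less in S5A. They were FCY2, the purine-cytosine permease (1.01), ADE17 of purine synthesis (0.63), the dihydroorotase URA4 (0.81) and the uridine kinase URK1 (0.74). These were 2 of 27 purine genes (7.41%, against 3.31% of all features) and 2 of 20 pyrimidine genes. The purine median was 0.39, with 23 differences above 0 and 4 below. The pyrimidine median was only 0.13, with 16 differences above 0 and 4 below. The pyrimidine differences ran from -0.95 (URA10) to 1.03 (URA7), neither of them called. Of 22 aminoacyl-tRNA synthetase genes and 41 translation factor genes limma called 0, with lowest adjusted p of 0.0582 and 0.0595.

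Salt repressed PHO84 and PHO3 less in S5A than in S2A. PHO84, the high-affinity phosphate transporter, was the feature most strongly repressed by salt in S2A among those called, with -4.64, -4.48 and -4.88, against -2.55, -3.19 and -3.32 in S5A and -4.51, -3.56 and -5.11 in wild-type. The difference was 1.65 (standard error 0.345; adjusted p = 0.0227). PHO3, a periplasmic acid phosphatase, differed by 1.29 (standard error 0.162; adjusted p = 0.0112), while PHO5, the acid phosphatase repressed by phosphate, differed by 1.02 and was not called (adjusted p = 0.0569; named after its value was seen). The acid phosphatase genes are close paralogs, and signal shared between them was not tested.

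Genes of RNA polymerase II and of the enzymes that modify the CTD had no call by limma. RPO21, the gene under study, which is read here from the plasmid, gave -0.96, -0.93 and -0.95 in S2A, -1.55, -1.35 and -1.24 in S5A and -0.72, -0.39 and -0.77 in wild-type. The arrays of the mutants did not overlap, but the difference of -0.43 (standard error 0.146) did not pass (limma adjusted p = 0.0915), and it was called in none of the 21 alternatives. Differences of the other RNA polymerase II subunits were -0.15 for RPB2, -0.10 for RPB3, -0.57 for RPB4, -0.31 for RPB7, -0.13 for RPB9 and -0.24 for RPB11, with adjusted p from 0.112 to 0.798. All 7 differences were thus below 0 with a list median of -0.24. Among 22 CTD kinases, cyclins and phosphatases limma called 0 (lowest adjusted p = 0.154, for SSU72), among 29 elongation factors 0 (lowest adjusted p = 0.0386, for ELP2) and among 25 Mediator subunits 0 (lowest adjusted p = 0.0865).

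NRD1, whose product binds the CTD, was called. Nrd1 terminates short transcripts early in the transcription cycle and its CTD-interacting domain prefers serine 5 phosphorylation. Salt raised it in S2A (0.45, 0.37 and 0.52) and in wild-type (0.68, 1.09 and 0.72) and lowered it in S5A (-0.78, -0.62 and -0.23). The difference of -0.99 (standard error 0.175; adjusted p = 0.0148) was the only call among 28 termination and 3′ processing genes (3.57%, near the share of all features). HRP1, which encodes a 3′ cleavage factor and was named after its value was seen, gave -0.06, -0.04 and 0.04 in S2A and -0.39, -0.80 and -0.53 in S5A, a difference of -0.55 that was not called (adjusted p = 0.0474).

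ICS2 and MDS3 also responded in opposite directions in the mutants. ICS2, a gene of unknown function, gave 0.76, 0.0 and 0.50 in S2A, -1.40, -1.10 and -0.96 in S5A and -0.08, -0.38 and 0.11 in wild-type, a difference of -1.57 (standard error 0.215; adjusted p = 0.0117). MDS3, a regulator of nutrient and pH signalling, was induced in S2A (mean 0.31) and repressed in S5A (mean -0.42). In 4 genes salt had no called effect in S2A but repressed S5A, namely SWI1, YPT52, MDM35 and COX17. SWI1, a subunit of the SWI/SNF chromatin remodeller, had means of -0.09 in S2A, -1.03 in S5A and -0.02 in wild-type and a difference of -0.94 (standard error 0.134; adjusted p = 0.0117). MIG2, a repressor of glucose-repressed genes, was repressed in both and more so in S5A, with -1.24, -1.23 and -1.08 in S2A against -2.35, -2.32 and -2.02 in S5A and -1.41, -0.77 and -1.07 in wild-type (difference -1.05; standard error 0.177; adjusted p = 0.0138). SKS1, a kinase of the glucose response, and the endocytic protein EDE1 were the other 2 genes repressed more in S5A (-0.79 and -0.66). In the opposite sense, RRM3, a DNA helicase, and TFC4, a subunit of the RNA polymerase III factor TFIIIC, were induced in S5A and had no called response in S2A (0.82 and 0.61). GSP2, a Ran GTPase, was induced in S2A (1.40, 0.91 and 1.08) and wild-type (1.47, 0.82 and 1.08) and slightly below 0 on all S5A arrays (-0.29, -0.13 and -0.29; difference -1.37; standard error 0.189; adjusted p = 0.0117). GSP2 is a close paralog of GSP1, and shared signal was not tested.

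Of 48 cell wall genes 2 were called (4.17%, near the 3.31% of all features), in opposite directions. CWP1, a mannoprotein of the wall, gave 2.58, 2.29 and 1.63 in S2A, 3.21, 3.39 and 3.56 in S5A and 2.62, 2.16 and 1.97 in wild-type, so that it rose more in S5A (difference 1.22; standard error 0.249; adjusted p = 0.0223). GSC2, the stress-induced glucan synthase subunit, gave 1.63, 1.28 and 1.02 in S2A and 0.15, 0.35 and 0.19 in S5A (difference -1.08; standard error 0.220; adjusted p = 0.0223).

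In the respiratory chain list 3 of 39 genes were called (7.69%, against 3.31% of all features), all lower in S5A. They were QCR8, a subunit of complex III, and INH1 and STF2, which regulate the ATP synthase. QCR8 gave 1.88, 1.42 and 1.98 in S2A, 0.02, 0.60 and 0.56 in S5A and 1.04, 1.36 and 1.41 in wild-type (difference -1.37; standard error 0.209; adjusted p = 0.0125). FMP23, a mitochondrial protein of unknown function, was one of the features whose call held in the most alternatives (18 of 21), with 2.67, 2.30 and 2.43 in S2A, 0.88, 1.26 and 1.01 in S5A and a difference of -1.42 (standard error 0.151; adjusted p = 0.00623). The other was YHR138C, whose product resembles a protease B inhibitor, with 2.73, 2.54 and 2.66 in S2A and 1.31, 1.08 and 1.35 in S5A (difference -1.39; standard error 0.147; adjusted p = 0.00623). Both lost the call without S2A replicate 1, S2A replicate 3 or S5A replicate 1 (highest adjusted p = 0.0377). HXK1, the hexokinase used on poor carbon sources, was induced less in S5A (-1.16). It was the 1 called gene of 34 glycolysis and fermentation genes (2.94%, near the 3.31% of all features). That list went the other way, with a median difference of 0.26, 26 differences above 0 and 8 below. MCR1, a mitochondrial cytochrome b5 reductase, was the 1 called gene of 32 antioxidant genes (-1.0, a share of 3.12%, near that of all features). Of 32 chaperone genes 2 were called (6.25%), HSP42 and HSP31 (-0.83).

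Transfer RNA features had a difference above 0 in 114 of 117 cases, with a median of 0.70, but the 3 that were called made up 2.56% of them, no more than the 3.31% of all features. The tRNA median was 0.97, 0.83 and -0.26 on the S2A arrays, 1.35, 1.10 and 1.26 on the S5A arrays and 0.98, 1.88 and 1.39 on the wild-type arrays, so S2A replicate 3 lay far below the others. Without S2A replicate 3 the median difference was 0.37. The 66 small nucleolar RNA features repeated this, with medians of 0.81, 0.45 and -0.58 in S2A, 1.09, 0.84 and 0.96 in S5A and 0.61, 1.41 and 0.77 in wild-type, a median difference of 0.77 and 0 calls by limma (lowest adjusted p = 0.0327). The called tRNA features were 1 for aspartate, tD(GUC)I2, and 2 for glutamate, tE(UUC)K and tE(UUC)I. On the S2A arrays tD(GUC)I2 gave 1.10, 0.74 and 0.12, against 2.13, 2.12 and 1.99 in S5A and 1.29, 1.81 and 1.68 in wild-type (difference 1.42; standard error 0.235; adjusted p = 0.0134). Copies of a tRNA gene share their sequence, so these features are not independent measurements. These groups were chosen from feature names after their values were seen.

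**Figure D4:**
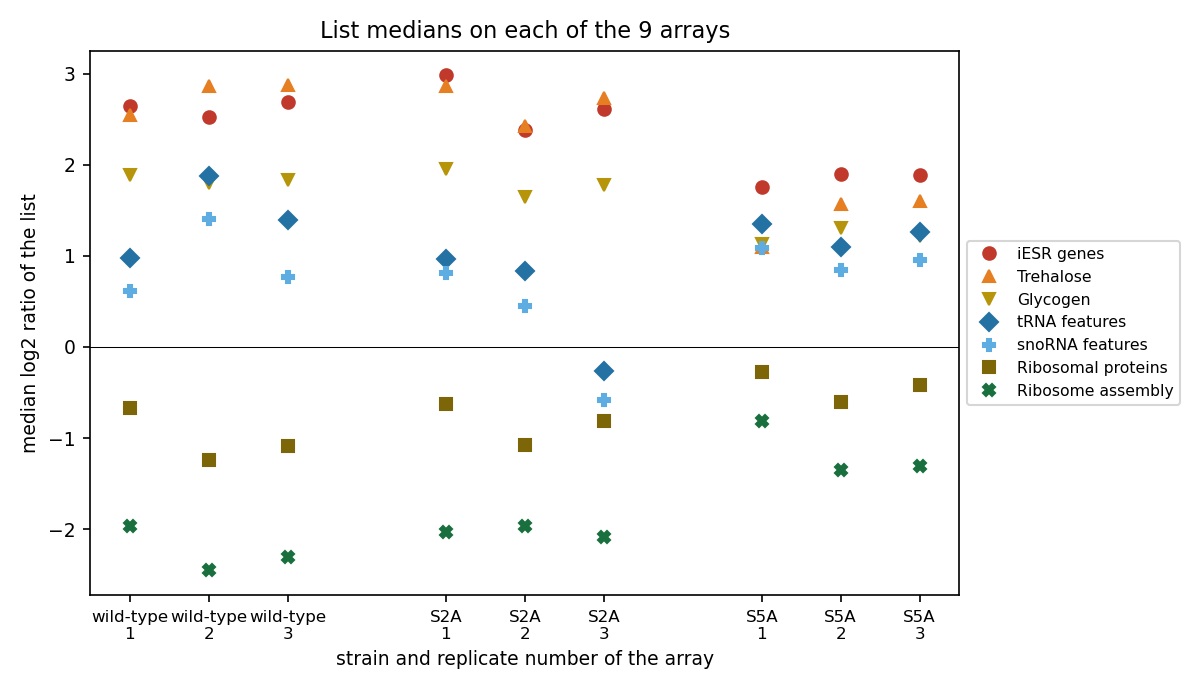
Median log2 ratio (y axis) of 7 groups of features on each of the 9 arrays (x axis: strain and replicate number). On the S5A arrays the iESR, trehalose and glycogen medians are lower and the ribosome assembly medians nearer 0 than on any S2A array, and S2A replicate 3 has the lowest tRNA (-0.26) and snoRNA (-0.58) medians. The iESR group shares 15 genes with the trehalose and glycogen groups.

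Some called features lay side by side. Among the tested neighbours of called features in the gene order of the S. cerevisiae reference table, 20 of 313 were also called (6.39%), against 3.31% of all features. They made up 10 neighbouring pairs, 8 called in one direction and 2 in opposite directions, and in none did the annotated genes overlap. GIP1, ZTA1 and FMP23 formed a run of 3 with differences of -1.16, -0.94 and -1.42, and the divergent genes SWI1 and IRC15 both were lower in S5A (-0.94 and -1.21). The divergent pair GCD10 and NOP2 differed by 1.13 and 0.95 and the tandem pair UBC8 and GLC3 by -1.26 and -1.04. ICS2 and its tandem neighbour SLI15, a chromosomal passenger protein, went in opposite directions (-1.57 and 0.87), as did the convergent genes YGR127W and UTP8 (-0.82 and 1.08).

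Across all features, the size of the response can be given as the slope of each mutant array on the mean wild-type response, through the origin. The S2A slopes were 1.01, 0.912 and 0.892 (mean 0.939 ± 0.0648, SD, n = 3 arrays) and the S5A slopes 0.673, 0.762 and 0.741 (mean 0.725 ± 0.0468, SD, n = 3 arrays). The mutants did not overlap, and the difference of -0.214 had p = 0.10 in a two-sided exact permutation test, the smallest that 3 arrays against 3 allow. Scaling to one spread and quantile normalization equalise the spread of the arrays and reduced the difference to -0.0459 and -0.0474 (exact permutation p = 0.40 and 0.20). Genes are not independent replicates, and the slope is a description of the arrays. After scaling, 54 features were called and 40 of these were among the 187, with ATG31, ICS2, SWI1, MIG2, CWP1, GSP2, GUT2, GDB1, NOC2, SPB1, NOP14, FMP23 and YHR138C among them.

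**Figure D5:**
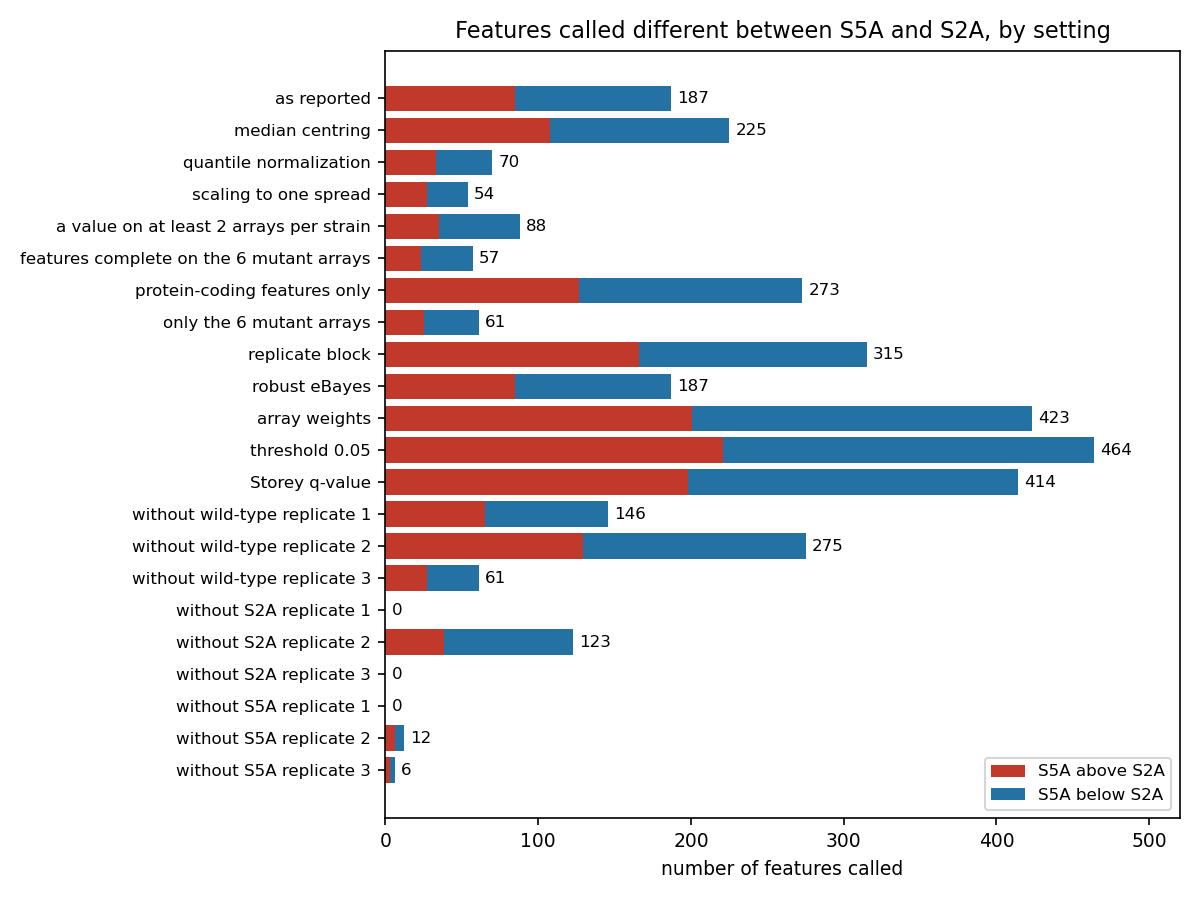
Number of features called different between S5A and S2A (x axis) as reported and under each of 21 alternatives, split by direction. The bars run from 0 without S2A replicate 1, S2A replicate 3 or S5A replicate 1 to 464 at a threshold of 0.05, against 187 as reported.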

How the data were processed

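RNA was compared on whole-genome tiled 2-colour NimbleGen arrays whose dye orientation was one and the same throughout. The log2 ratios of 6868 features were deposited after normalization by the authors with procedures cited in the methods. How probes were summarised, whether strands were separated and the genome build are not given in the sources used here. The labels place the treated culture in the first channel, and genes known to be induced by salt had positive values. Array medians ran from -0.00135 to -0.00011, and 156 to 1163 values were missing per array. Precision is limited by there being 3 arrays a strain.

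The 5645 complete features were modelled with one mean per strain (limma 3.58.1 in R 4.3.3, lmFit and eBayes), with Benjamini-Hochberg adjustment over all of them. A strain difference was called at 0.025 or below and a NaCl response below 0.05. The fit was tested on simulated data with independent normal noise for each feature and array. Those data held no effects shared within an array or between arrays of one replicate number. The simulation therefore cannot show how such effects bear on the calls. Symbols came from RefSeq's table for assembly R64, which matched 5984 features. The replicate numbers were not used as pairs in this fit, although the paper describes the wild-type, S2A and S5A strains as paired.

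Members of 50 gene lists were taken from general knowledge. The lists, the comparison and the naming rule were chosen with earlier results of these data known. The rule took the 12 largest differences each way among called features whose S5A and S2A arrays did not overlap. It also took up to 2 called genes per list by adjusted p and the RNA polymerase II subunits. Up to 6 called features larger or opposite in S5A and up to 6 called in most alternatives were added. Further called genes appear as list members, neighbours or members of small classes, chosen after their values were seen. There were 21 alternatives, covering array scaling, feature filters, the arrays fitted, a replicate block, the variance model, the threshold, Storey's q-value (lambda 0.5) and each array left out. Slopes were compared by exact permutation. Results for 2 genes are not reported here.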

Additional observations from a re-analysis of the deposited data

Results flagged for a closer look

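The NaCl response of 187 features differed between S2A and S5A by a test of the difference itself. Among them 3 were induced in S2A and repressed in S5A by calls in each strain, ICS2 (difference -1.57), NRD1 (-0.99) and MDS3 (-0.73). ATG31 (2.53) and CWP1 (1.22) were flagged because they were induced in both mutants and more in S5A, against the direction of the 73 induced features with a smaller response. A further 7 features without a value on all 9 arrays, and so outside the comparison above, were called when 2 measured arrays of each strain were enough. Of these SPS100, a sporulation wall gene, differed by -1.74, SPG1 by -1.47, YHL019W-A by -1.44 and DIT2 by -1.09, and YBL008W-A by 1.66, the 60S assembly gene IPI1 by 1.32 and THI13 by 1.14.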

How the results depend on the processing

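Of 1551 pairs of a named gene and an alternative, 1055 kept the direction and the side of the threshold, 480 kept the direction and lost the call, 8 gained one and 8 changed sign. Only 59 of the 74 genes followed were called, and a gene not called counted as kept where it stayed uncalled. The 1055 pairs therefore do not measure how stable the calls were. The 187 called features became 70 after quantile normalization, 54 after scaling to one spread, 88 when 2 measured arrays of each strain were enough, 57 with features complete on the 6 mutant arrays, 61 with only those arrays, 423 with array weights, 464 at a threshold of 0.05 and 414 with Storey's q-value, and from 0 to 275 with one array left out. The largest of these moves in the split was without S2A replicate 2, where 30.9% of 123 calls were higher in S5A against 45.5% of the 187. With the replicate number as a block 315 were called (52.7% higher in S5A), of which 179 were among the 187. Deviations from the strain means of same-numbered arrays correlated at 0.129, 0.121 and 0.062 for S2A with S5A, where the third pair did not reach 0.1. They correlated at 0.149, 0.388 and 0.292 for wild-type with S2A and at 0.231, 0.177 and 0.166 for wild-type with S5A. Each array correlated best with the arrays of its own number in the other strains. The paper describes the wild-type, S2A and S5A strains as paired, but the labels do not say which arrays belong together. The fit behind the 187 calls did not use such pairs. The slope difference became -0.0474 after quantile normalization and -0.0459 after scaling, and ran from -0.237 to -0.177 with one array left out. The counts of NaCl-responsive features stayed within 1.5 times. GPD1 turned to 0.075 after quantile normalization and 0.66 after scaling and STL1 to 0.55 after scaling. RPB3 ran from -0.20 to 0.050 and ALD3 from -0.115 to 0.216 with an array left out. Causes were not tested.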
